A study of Mus musculus with 12 samples.

Results

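The genes described here are targets of peroxisome proliferator-activated receptor alpha (PPAR-alpha, gene Ppara) and enzymes of fatty acid oxidation, measured in the liver of 12 adult male mice. The list holds 36 gene symbols: the receptor itself, 19 mitochondrial genes, 8 peroxisomal genes, 4 microsomal genes and 4 genes of the cytosol or membranes. Of these, 34 were measured, each by 1 probe set among the 22206 tested; Acsl1 and Etfb were not analysed here. The animals were C57BL/6J males of 4 to 5 months, and every one carried the offspring genotype HET, which the breeding plan ties to the gene for uncoupling protein 1 (UCP1), the heat-producing carrier of brown fat mitochondria. The groups were 6 offspring of wild-type (WT) dams and 6 offspring of UCP1-KO dams. All sires were heterozygous. Breeding and housing were at 23 °C, and the offspring ate standard chow and drank water freely. The dams differed, not the offspring genotype, but a heterozygote must receive its null allele from the other parent in each group, so the dam's genotype and the parental origin of the allele cannot be told apart. The labels name neither litters nor dams, so 2 arrays may be siblings, and p-values then measure only the spread between these animals. The sources used here do not give feeding state or time of day at collection. Arrays are numbered as in the labels, 1 to 6 for offspring of WT dams and 7 to 12 for offspring of UCP1-KO dams.

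PPAR-alpha is a nuclear receptor that fatty acids activate. It binds DNA as a heterodimer with the retinoid X receptor, at direct repeats of a short hexamer spaced by a single base, and in the fasted liver it raises the genes that burn fat. Mitochondria oxidise most long-chain fatty acids after the carnitine shuttle has brought them in, peroxisomes shorten very long chains and dicarboxylic acids, and microsomal cytochromes P450 of the Cyp4a family hydroxylate the far end of the chain (omega-oxidation).

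The 250 bases before the annotated start were read for the receptor's repeat, because the list includes targets of the receptor. RefSeq (GRCm38.p6) gave a window for 28 of the 34 measured members. The repeat was searched as 2 copies of AGGNCA spaced by any 1 base, on both strands, and 0.338% of 32851 windows of all genes held it. Among the 28 members it was found in Fabp1 alone (3.57%), on the minus strand, 67 bases before the start. The single half-site AGGTCA, which can also form part of that repeat, was found in 14.0% of all windows and in 7 of the 28 members (25%), namely Acadm, Acadvl, Acot12, Acot4, Cpt1a, Fabp1 and Slc27a2. The windows of 5 members that the results below turn on are shown 5′ to 3′ on the plus strand, with the repeat (Fabp1) or the half-site (Cpt1a) in capitals. Hadhb, Acot3 and Cyp4a32 held neither string. A match describes letters only, and a window without one says nothing of binding elsewhere. The positions are chr19:3323051-3323300, chr5:30155003-30155252, chr6:71199629-71199878, chr12:84051894-84052143 and chr4:115600688-115600937.
Cpt1a: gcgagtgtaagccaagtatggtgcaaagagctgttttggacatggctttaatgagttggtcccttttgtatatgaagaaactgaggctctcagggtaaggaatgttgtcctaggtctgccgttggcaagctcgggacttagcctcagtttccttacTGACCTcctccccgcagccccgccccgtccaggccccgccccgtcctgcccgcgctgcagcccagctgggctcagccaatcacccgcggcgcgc
Hadhb: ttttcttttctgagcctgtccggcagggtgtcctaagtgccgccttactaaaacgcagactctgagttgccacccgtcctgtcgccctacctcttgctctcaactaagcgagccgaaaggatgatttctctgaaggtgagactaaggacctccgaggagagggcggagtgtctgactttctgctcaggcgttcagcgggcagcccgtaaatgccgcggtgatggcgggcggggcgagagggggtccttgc
Fabp1: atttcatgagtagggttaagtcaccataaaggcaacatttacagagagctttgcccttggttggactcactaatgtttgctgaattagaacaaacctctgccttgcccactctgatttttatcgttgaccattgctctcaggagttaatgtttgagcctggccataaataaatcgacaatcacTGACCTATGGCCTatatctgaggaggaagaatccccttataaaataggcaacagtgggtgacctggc
Acot3: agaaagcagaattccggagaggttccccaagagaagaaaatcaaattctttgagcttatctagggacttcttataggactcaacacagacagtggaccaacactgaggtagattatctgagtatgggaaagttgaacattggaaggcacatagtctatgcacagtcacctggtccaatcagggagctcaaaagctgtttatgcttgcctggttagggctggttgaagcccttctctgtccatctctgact
Cyp4a32: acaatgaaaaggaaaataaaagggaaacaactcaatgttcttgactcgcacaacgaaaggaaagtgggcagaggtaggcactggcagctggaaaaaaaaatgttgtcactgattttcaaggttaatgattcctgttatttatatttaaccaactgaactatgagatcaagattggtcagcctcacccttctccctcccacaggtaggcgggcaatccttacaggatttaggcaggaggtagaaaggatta
Hadha and Hadhb, which encode the alpha and beta subunits of the mitochondrial trifunctional protein, lie head to head on chromosome 5. Their annotated starts are 273 bases apart and point in opposite directions, so the printed Hadhb window begins 23 bases from the Hadha start and is upstream of both genes.

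The tissue label was checked against marker genes. All 8 hepatocyte markers read between 17.09 and 19.72 on the log2 scale in every array, while the arrays' background probes averaged 4.95 to 5.05. Of the markers of other tissues and of bile duct cells, 0 of 5 lymphocyte genes, 0 of 5 pancreatic acinar genes, 1 of 5 adipocyte genes, 1 of 5 skeletal muscle genes, 2 of 5 brown adipocyte genes and 2 of 5 cholangiocyte genes had a mean above 6.30, the average over arrays of the negative control probes' median. The negative control median averaged 6.39 ± 0.21 (SD, n = 6) for WT dams and 6.21 ± 0.14 (SD, n = 6) for UCP1-KO dams (exact two-sided permutation p = 0.119), and it was higher on arrays 3 to 6 than on arrays 1 and 2. None of the 34 members fell below it on any array. Arrays 8, 10 and 11 held the 3 lowest values of 3 of the 7 measured pericentral hepatocyte markers: Cyp1a2 (15.11, 16.12 and 15.17, against 16.36 to 16.89 on the other 9), Slc1a2 (12.59, 12.85 and 12.28, against 13.19 to 13.54) and Cyp2e1 (18.58, 18.33 and 18.09, against 18.62 to 18.89). Oat, Lgr5, Axin2 and Rgn did not have that order, and Oat was highest on array 11. The log2 of the 7 markers' summed signal ran from 19.37 to 19.62 in offspring of WT dams and from 19.00 to 19.52 in offspring of UCP1-KO dams. Arrays 8, 10 and 11 also held the 3 lowest values of Cyp2f2 (periportal) and Stab2 (endothelial). They held the 3 highest of Hal and Aldh1b1 (periportal), Hpx and Cps1 (hepatocyte), Lyve1 (endothelial) and Slc4a1 (erythroid). Pck1 and Hsd17b13, also periportal, had neither order. By dam genotype, no marker had an adjusted p under 0.05 (limma). At an unadjusted p under 0.05 (13.1% of all probe sets) were 2 of 7 pericentral and 2 of 5 periportal markers. On the log2 scale, UCP1-KO dams minus WT dams, these were Cyp1a2 (-0.64), Slc1a2 (-0.44), Pck1 (0.58) and Hsd17b13 (0.45). Hsd17b13 groups did not overlap (1.05% of all probe sets). Stab2, Lyve1 and 1 adipocyte, 1 brown adipocyte, 1 erythroid and 1 muscle marker also had such a p. Array 3 held the lowest value of Alb, Apoa1, Ttr and Serpina1a, 4 of the 8 hepatocyte markers. In bulk liver, fewer cells of a type and less RNA per cell cannot be told apart. How small a difference could be resolved depends on having 6 arrays a group.

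No member differed between the groups after correction for all 22206 probe sets. With limma and Benjamini-Hochberg adjustment, 0 of 34 members had an adjusted p under 0.05, against 8 probe sets of all tested (0.036%), and the members' adjusted p ran from 0.192 to 0.996. At an unadjusted p under 0.05 there were 7 of 34 members (20.6%, against 13.1% of all probe sets). Of the 7, 5 were higher in offspring of UCP1-KO dams (14.7%, against 7.08%) and all 5 were mitochondrial: Acadl, Etfa, Cpt1a, Hadhb and Hadha. The other 2 were lower and microsomal, Cyp4a10 and Cyp4a32 (5.88%, against 6%). No member had groups without overlap, which 1.05% of all probe sets had. The median log2 difference of the 34 members, UCP1-KO dams minus WT dams, was 0.00, and that of all probe sets was 0.03. All differences below run in that direction and are on the log2 scale, where 1 is a doubling.

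**Figure D1:**
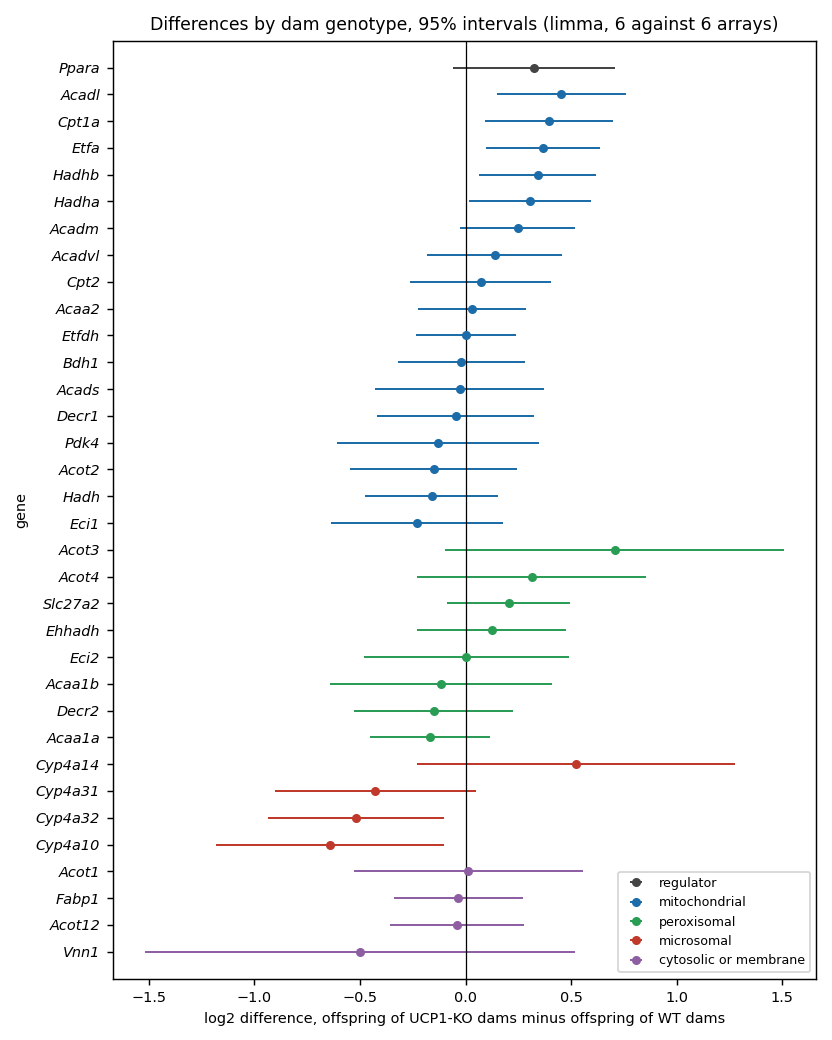
Log2 difference between offspring of UCP1-KO dams and of WT dams (horizontal axis) for each of the 34 members, grouped by compartment; points are the limma estimates and bars their 95% confidence intervals, 6 arrays per group. The intervals of Acadl, Etfa, Cpt1a, Hadhb and Hadha lie above 0 and those of Cyp4a10 and Cyp4a32 below it, before any correction for the number of probe sets.

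Ppara itself read 12.41 to 12.82 (median 12.68) in offspring of WT dams and 12.68 to 13.90 (median 12.83) in offspring of UCP1-KO dams. Array 9 stood at 13.90, array 8 came next at 13.06, and the groups overlapped. The difference was 0.32 (95% interval -0.06 to 0.71; adjusted p = 0.467, limma), and without array 9 it was 0.14.

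In the mitochondrial group, 10 of 17 members had a difference above 0 and 7 below, with a median of 0.03. The 5 with an unadjusted p under 0.05 include the entry enzyme of the carnitine shuttle, a first dehydrogenase of the spiral, both subunits of the trifunctional protein that carries out the later steps, and a subunit of the flavoprotein that takes the electrons away. For each of these 5, all 6 offspring of UCP1-KO dams lay above the median of the offspring of WT dams, yet the groups overlapped.

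Cpt1a, carnitine palmitoyltransferase 1 of the liver, which commits long-chain acyl groups to import, read 13.52 to 14.27 (median 13.82) in offspring of WT dams and 14.07 to 14.59 (median 14.24) in offspring of UCP1-KO dams. The highest of the WT-dam arrays was array 2 (14.27), and array 6 (14.15) also lay inside the other group's range. The difference was 0.39 (95% interval 0.09 to 0.70), a 1.31-fold ratio, with an adjusted p of 0.248 (limma). Cpt2, the enzyme that returns the acyl group to coenzyme A inside the mitochondrion, differed by 0.07 (95% interval -0.26 to 0.40).

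Acadl, long-chain acyl-CoA dehydrogenase, had the smallest p of all members. It read 13.68 to 14.41 (median 13.85) in offspring of WT dams and 14.16 to 14.59 (median 14.35) in offspring of UCP1-KO dams. Array 2, at 14.41, was the only WT-dam array inside the range of the other group. The difference was 0.45 (95% interval 0.15 to 0.76), a 1.37-fold ratio, with an adjusted p of 0.192 (limma). Without array 2 the groups did not overlap, and the adjusted p was 0.0745, the lowest any member reached under any of the 20 alternatives. The other acyl-CoA dehydrogenases gave smaller values. Acadm, for medium chains, read 11.17 to 11.43 (median 11.37) against 11.22 to 11.91 (median 11.59), and 5 of the 6 offspring of UCP1-KO dams exceeded every offspring of WT dams. Array 10 (11.22) was the exception, and the difference was 0.25 (95% interval -0.02 to 0.52; adjusted p = 0.428, limma). Acadvl, for very long chains, differed by 0.14, with 0.037 left without array 9 and 0.36 without arrays 8, 10 and 11. Acads, for short chains, differed by -0.03.

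Hadha read 14.73 to 15.28 (median 15.02) in offspring of WT dams and 15.08 to 15.69 (median 15.33) in offspring of UCP1-KO dams, a difference of 0.31 (95% interval 0.02 to 0.60; adjusted p = 0.353, limma). Hadhb read 13.28 to 13.78 (median 13.51) against 13.55 to 14.15 (median 13.86), a difference of 0.34 (95% interval 0.06 to 0.62; adjusted p = 0.273, limma). Hadha and Hadhb gave like differences, and for each of them 4 offspring of UCP1-KO dams lay above all offspring of WT dams. Etfa (0.37) and Cpt1a (0.39) also lay close to these values. The part of the printed stretch that Hadha and Hadhb share was not tested. Hadhb overlapped through array 2 alone (13.78). Hadh, the matrix enzyme that handles shorter 3-hydroxyacyl chains, gave -0.16 (95% interval -0.47 to 0.15), and Acaa2, the matrix thiolase, gave 0.03 (95% interval -0.23 to 0.29).

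Etfa, the alpha subunit of electron transfer flavoprotein, read 14.64 to 15.23 (median 14.81) in offspring of WT dams and 15.02 to 15.37 (median 15.22) in offspring of UCP1-KO dams. Again only array 2 (15.23) reached into the other group, and the difference was 0.37 (95% interval 0.10 to 0.64; adjusted p = 0.232, limma). Etfdh, the oxidoreductase that passes those electrons to ubiquinone, differed by 0.00 with an interval of -0.23 to 0.24. Its 12 arrays spanned 14.96 to 15.30.

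The 5 mitochondrial values depended on which arrays were used. Hadha had no unadjusted p under 0.05 (limma) with median centring, or when array 3, 4, 5, 7, 8, 9 or 12 was left out. Acadl, Cpt1a, Hadhb and Etfa kept such a p whichever 1 array was left out. Etfa lost it without arrays 8, 10 and 11. Arrays 3 to 6 are those with bright negative controls, and without them Acadl was 0.33, Cpt1a 0.22, Hadhb 0.18, Etfa 0.17 and Hadha 0.10. With the negative control median as a covariate in the fit, Acadl was 0.42, Etfa 0.29, Cpt1a 0.26, Hadhb 0.24 and Hadha 0.16. All 10 values stayed above 0. Acadl was the member of the 5 that kept an unadjusted p under 0.05 with the covariate (limma), and none of the 5 did without arrays 3 to 6. That last fit kept only arrays 1 and 2 for WT dams. Array 2 was the highest WT-dam array for Cpt1a, Acadl, Hadhb and Etfa. The parts of negative controls, group size and array 2 were not tested apart.

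The auxiliary and side enzymes of the mitochondrion all had differences below 0, none with an unadjusted p under 0.05. Decr1 and Eci1, which handle unsaturated chains, gave -0.05 and -0.23. Acot2, a thioesterase that frees long-chain acyl groups, gave -0.15, and -0.020 without array 10. Bdh1, which interconverts the ketone bodies, gave -0.02. Pdk4, the kinase that turns off pyruvate dehydrogenase and a classic fasting target of the receptor, read 6.98 to 8.35 (median 7.84) against 6.89 to 8.22 (median 7.72), a difference of -0.13 (95% interval -0.61 to 0.35; adjusted p = 0.857, limma).

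**Figure D2:**
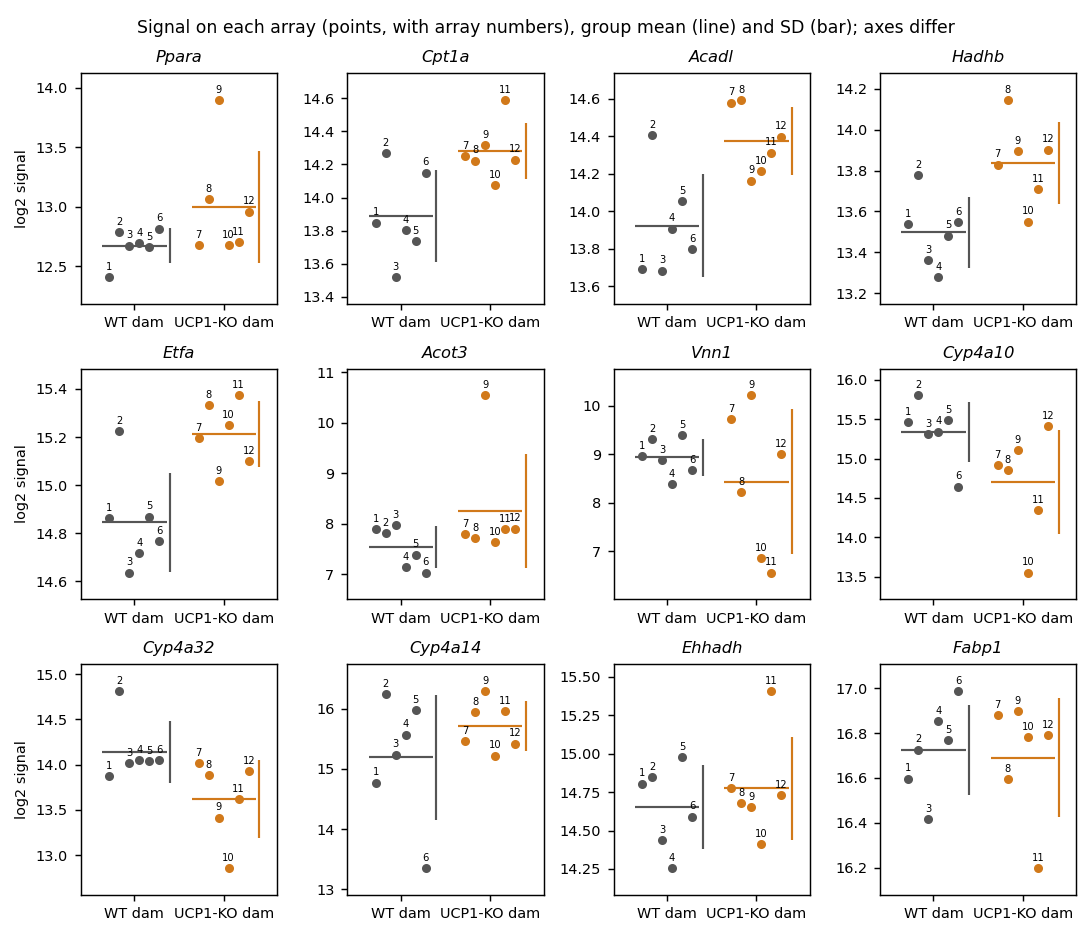
Log2 signal on each of the 12 arrays (vertical axis) for members the text gives in full; numbered points are arrays, horizontal lines the group means and vertical bars ± 1 SD (n = 6), on axes that differ by gene, with offspring of WT dams and of UCP1-KO dams side by side. Array 9 stands alone above the others for Acot3 (10.54), while Vnn1 is spread from 6.56 to 10.21 among offspring of UCP1-KO dams.

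None of the 8 peroxisomal members had an unadjusted p under 0.05, and 5 of the 8 differences were above 0 with a median of 0.06. Ehhadh, the peroxisomal bifunctional enzyme and a marker of receptor activation in rodents, read 14.25 to 14.98 (median 14.70) in offspring of WT dams and 14.41 to 15.41 (median 14.70) in offspring of UCP1-KO dams. Array 11 was the high one, and the difference was 0.12 (95% interval -0.23 to 0.48; adjusted p = 0.799, limma). The thiolases Acaa1a and Acaa1b, are near-identical copies whose signals may not be fully separate. Acaa1a read 13.61 to 13.96 (median 13.72) against 13.21 to 13.85 (median 13.61), a difference of -0.17 (95% interval -0.45 to 0.12; adjusted p = 0.633, limma). Acaa1b gave -0.12 (95% interval -0.64 to 0.41), and its lowest value, 12.17, was on array 10. The enzymes for unsaturated chains, Decr2 and Eci2, gave -0.15 and 0.00. Both were more spread among offspring of UCP1-KO dams, where Decr2 ran from 13.22 to 14.46 (13.75 to 14.18 in the other group) and Eci2 from 13.36 to 14.88 (13.80 to 14.70 in the other group). Slc27a2, which imports and activates very long chains, read 16.12 to 16.73 (median 16.55) against 16.45 to 17.01 (median 16.68), a difference of 0.20 (95% interval -0.09 to 0.49).

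The peroxisomal thioesterases Acot3 and Acot4 turned on single arrays. Acot3 read 7.03 to 7.97 (median 7.6) in offspring of WT dams. Among offspring of UCP1-KO dams, array 9 read 10.54 and the other 5 read 7.64 to 7.90. The difference of 0.71 (95% interval -0.10 to 1.51; adjusted p = 0.445, limma) was 0.25 without array 9. Acot4 read 6.46 to 8.04 (median 7.64) against 7.07 to 8.58 (median 7.80). Array 9 was its highest array and array 6 its lowest, and the difference of 0.31 (95% interval -0.23 to 0.85) was 0.11 without array 6. Acot1 to Acot4 and the Cyp4a genes are close relatives, and whether their probes share signal was not tested.

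Of the 4 microsomal omega-hydroxylases, 3 had a difference below 0 and 1 above, with a median of -0.47. Cyp4a10 read 14.64 to 15.80 (median 15.40) in offspring of WT dams and 13.55 to 15.41 (median 14.88) in offspring of UCP1-KO dams. Array 10 was the lowest at 13.55, array 11 next at 14.35, and the groups overlapped. The difference was -0.64 (95% interval -1.18 to -0.10), a 1.56-fold lower signal, with an adjusted p of 0.287 (limma). It was -0.41 without array 10 and -0.19 without arrays 8, 10 and 11.

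Cyp4a32 read 13.87 to 14.82 (median 14.04) in offspring of WT dams and 12.85 to 14.02 (median 13.75) in offspring of UCP1-KO dams. No offspring of a UCP1-KO dam exceeded the median of the offspring of WT dams, array 10 was again the lowest, and array 2 the highest. The difference was -0.52 (95% interval -0.94 to -0.10; adjusted p = 0.268, limma), and -0.37 without array 10. Neither Cyp4a10 nor Cyp4a32 had an unadjusted p under 0.05 without array 2, or without array 10. Cyp4a31 read 9.60 to 10.93 (median 9.81) against 8.84 to 10.09 (median 9.62), with the same lowest and highest arrays. Its difference of -0.43 (95% interval -0.90 to 0.05; adjusted p = 0.438, limma) was -0.24 without array 2.

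Cyp4a14 had the opposite sign. It read 13.35 to 16.24 (median 15.40) in offspring of WT dams and 15.22 to 16.29 (median 15.70) in offspring of UCP1-KO dams. Array 6 was the low one at 13.35, and array 1 was next at 14.77. The difference of 0.52 (95% interval -0.23 to 1.28; adjusted p = 0.558, limma) was 0.16 without array 6. Without array 2 it was 0.73, with an unadjusted p under 0.05 (limma). A difference between Cyp4a14 and its 3 relatives was not tested.

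Members outside these organelles gave no unadjusted p under 0.05. Fabp1, the liver's cytosolic fatty acid carrier and the member with the receptor's repeat in its printed window, read 16.42 to 16.99 (median 16.75) in offspring of WT dams and 16.20 to 16.90 (median 16.79) in offspring of UCP1-KO dams. Array 11 was its lowest, and the difference was -0.03 (95% interval -0.34 to 0.27; adjusted p = 0.953, limma). Acot1, a cytosolic thioesterase, read 8.03 to 9.65 (median 9.04) against 8.57 to 9.63 (median 8.83), a difference of 0.01 (95% interval -0.53 to 0.56). Acot12, a cytosolic acetyl-CoA thioesterase, read 13.06 to 13.44 (median 13.22) against 12.81 to 13.70 (median 13.21), a difference of -0.04 (95% interval -0.36 to 0.28).

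Vnn1, the membrane-anchored pantetheinase vanin 1, had the greatest spread of all members, an SD of 1.07 over the 12 arrays. It read 8.39 to 9.39 (SD 0.38) in offspring of WT dams and 6.56 to 10.21 (SD 1.5) in offspring of UCP1-KO dams. Arrays 8, 10 and 11 read 8.22, 6.86 and 6.56, below every offspring of a WT dam, and arrays 7 and 9 read 9.73 and 10.21, above every one. The difference of -0.50 (95% interval -1.52 to 0.52; adjusted p = 0.703, limma) was -0.13 without array 11, -0.19 without array 10, -0.76 without array 7, -0.86 without array 9, and 0.72 without arrays 8, 10 and 11. With the negative control covariate it was -0.87. After Vnn1, the greatest spreads were those of Acot3 (SD 0.89) and Cyp4a14 (SD 0.80).

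Single arrays recurred across the members, a pattern described here after the values were seen. Array 9 held the highest value of the 12 for 13 of 34 members (38.2%, against 10.5% of all probe sets). These were Ppara, Cpt2, Acadvl, Hadha, Acaa2, Acot2, Bdh1, Decr2, Acot3, Acot4, Cyp4a14, Acot12 and Vnn1, from every compartment, and array 9 was the lowest for 0 of 34 members (against 7.91% of all probe sets). Among the offspring of WT dams, array 3 held the lowest value for 7 members (20.6%, against 11.4%): Cpt1a, Cpt2, Acadl, Acaa2, Etfa, Etfdh and Slc27a2. Array 10 held the lowest value for 8 members (23.5%, against 7.3%): Hadh, Decr1, Acot2, Acaa1b, Decr2, Cyp4a10, Cyp4a31 and Cyp4a32. The median deviation from each gene's mean over the 8 peroxisomal members was 0.52 on array 9 and -0.43 on array 10. Over the 4 microsomal members it was 0.86 on array 2 and -0.98 on array 10. The mitochondrial members' median deviated least, from -0.24 on array 3 to 0.23 on array 9. Arrays 8, 10 and 11 together held the lowest value for 16 members (47.1%, against 26.1%). They also held it for 48 of the 115 further pathway genes described below, so this was not particular to the members. On arrays 8, 10 and 11 Cyp1a2, Slc1a2 and Cyp2e1 were low, and some periportal, endothelial and other markers were low or high. The part of pericentral genes, or of these other markers, in the members' values was not tested. Array 9 also had the lowest negative control median, 5.96, whose part was not tested either.

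**Figure D3:**
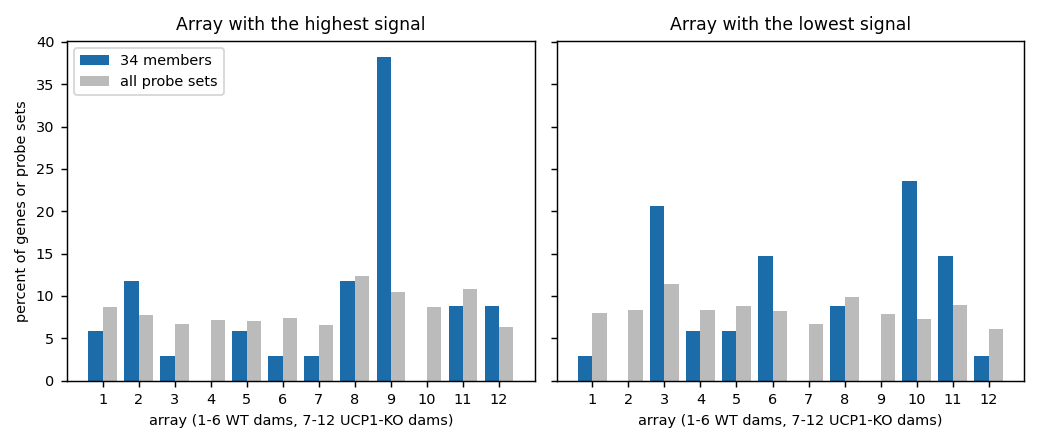
Share of the 34 members (blue) and of all 22206 probe sets (grey), in percent on the vertical axis, whose highest (left) or lowest (right) signal of the 12 arrays fell on each array. Array 9 holds the highest value of 38.2% of members and array 10 the lowest of 23.5%.

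The members' SD was greater among offspring of UCP1-KO dams than among offspring of WT dams for 24 of 34 members (70.6%, against 53.2% of all probe sets). By compartment this held for 12 of 17 mitochondrial, 6 of 8 peroxisomal, 2 of 4 microsomal and 3 of 4 cytosolic or membrane members, and for Ppara. The median SD of the peroxisomal members was 0.29 and 0.48 in the respective groups, and that of the mitochondrial members 0.23 and 0.26. These are descriptions with no test.

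**Figure D4:**
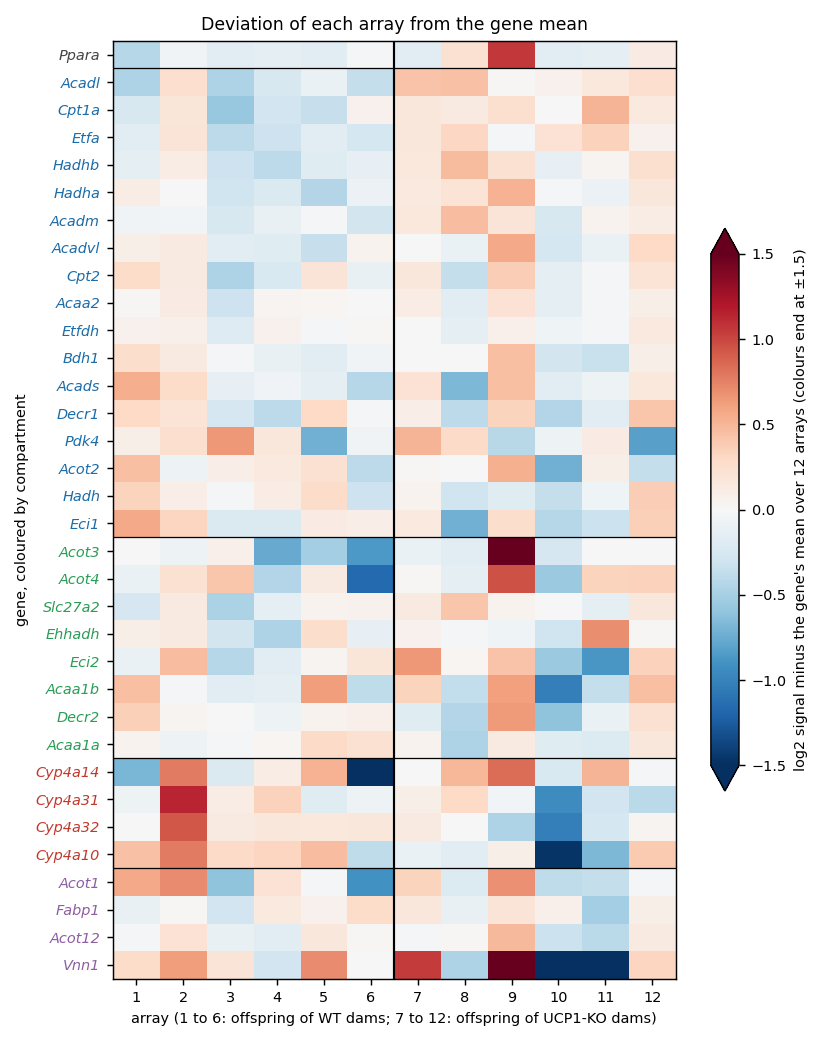
Log2 signal of each of the 34 members (rows, by compartment) on each of the 12 arrays (columns), as the deviation from the member's mean over the 12 arrays; red is above and blue below the mean. Column 9 is red for most members, with Acot3 and Vnn1 at its strongest, and column 10 is blue for the Cyp4a genes and for many peroxisomal members; colours end at 1.5 either way.

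How far members followed the receptor's own mRNA was measured across the 12 arrays, with Ppara and Cyp4a14, a sensitive target, each set against the other members. Of 65 correlations, 57 were positive and 6 had an unadjusted permutation p under 0.05, but 0 had a Benjamini-Hochberg adjusted p under 0.05, by Pearson's r or by Spearman's rho. The same shares over all probe sets were not computed, so whether these counts are particular to the members was not tested. Ppara with Acot3 gave r = 0.83 (permutation p = 0.0499, adjusted p = 0.449) and rho = 0.13 (permutation p = 0.684, adjusted p = 0.911). Without arrays 8 and 9, the farthest from the Ppara median, r was -0.14. Array 9 was the highest array for both genes (Acot3 10.54), while Acot3 on array 8 (7.72) lay among the other arrays. An r without array 9 alone was not computed. Ppara with Hadha gave r = 0.69 (permutation p = 0.0157, adjusted p = 0.384) and rho = 0.63 (permutation p = 0.0328, adjusted p = 0.529), and r was 0.12 without the same pair of arrays. Within offspring of WT dams that r was -0.27 (exact permutation p = 0.640), and within offspring of UCP1-KO dams it was 0.92 (exact permutation p = 0.00972, adjusted p = 0.316). Cyp4a14 with Acot4 gave r = 0.75 (permutation p = 0.00679, adjusted p = 0.384) and rho = 0.53 (permutation p = 0.0778, adjusted p = 0.615), and r was 0.27 without arrays 6 and 9.

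The wider pathway was read from 7 further lists holding 115 measured genes, each counted once. After correction over all probe sets 0 of the 115 passed (limma), and 19 had an unadjusted p under 0.05 (16.5%, against 13.1%), 9 with a difference above 0 and 10 below, with a median difference of -0.01. In the list of other mitochondrial genes, 1 of 22 lay above 0 and 4 below at that level (4.55% and 18.2%, against 7.08% and 6% of all probe sets). The 3 with the smallest p were Cpt1b, the muscle form of carnitine palmitoyltransferase (-0.61), and the medium-chain acyl-CoA synthetases Acsm5 (-0.53) and Acsm1 (-0.30). Cpt1b lay below the negative control median on 7 of the 12 arrays. Of 5 ketone body genes, 1 lay on each side (20% each). Oxct1, which uses ketone bodies, gave 1.00 and Slc16a6, a transporter that exports them, gave -0.89 (adjusted p = 0.157 and 0.259, limma). Oxct1 lay below the negative control median on 4 arrays.

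Among 25 other peroxisomal genes, 6 had an unadjusted p under 0.05, with 3 differences on each side of 0 (12% each way, against 7.08% above and 6% below in all probe sets). Abcd2, a transporter of very long-chain acyl-CoA, gave 1.39 (95% interval 0.48 to 2.30; adjusted p = 0.188, limma), with arrays from 8.18 to 9.70 in offspring of WT dams and 9.36 to 11.92 in offspring of UCP1-KO dams. Nudt19, a coenzyme A hydrolase, gave 0.52 (adjusted p = 0.167, limma), and Acox3, an oxidase for branched chains, gave -0.48 (adjusted p = 0.291, limma). None of 10 other microsomal genes had an unadjusted p under 0.05. In uptake and activation it was 1 of 12 (8.33%, against 7.08%), Lpl, lipoprotein lipase, at 0.38. Of the receptor's targets outside oxidation, 3 of 27 lay above 0 and 2 below at that level (11.1% and 7.41%, against 7.08% and 6%). By p the leading ones were Cpt1b, given above, Aqp3, a channel for water and glycerol (0.53), and Cidea, a lipid droplet protein (0.39). Cpt1b is itself an oxidation enzyme and is counted in both this list and that of other mitochondrial genes. Aqp3 and Cidea lay below the negative control median on all 12 arrays. Among the receptor's partners and cofactors 1 of 15 lay below (6.67%, against 6%), the mediator subunit Med1 at -0.30.

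**Figure D5:**
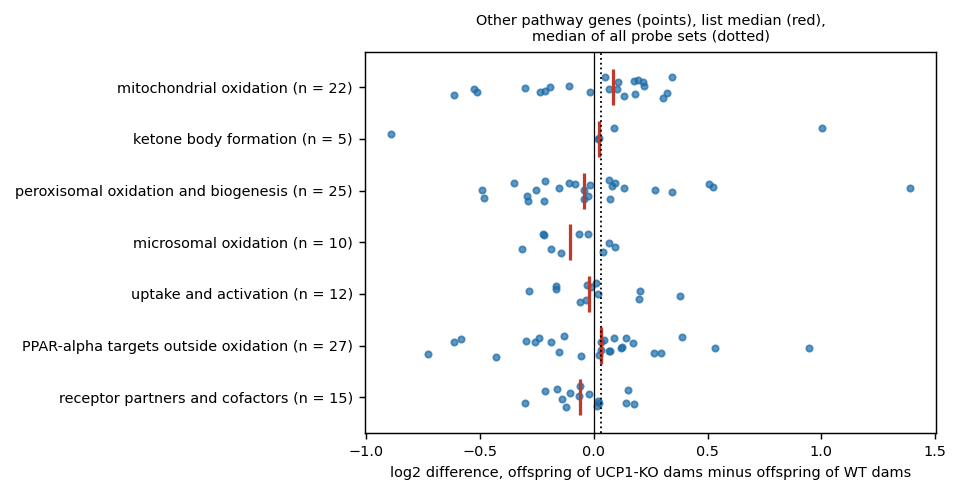
Log2 difference between offspring of UCP1-KO dams and of WT dams (horizontal axis) for the genes of each further pathway list (vertical axis); points are genes, red marks the list median and the dotted line the median of all probe sets. The list medians lie between -0.11 and 0.08, and Abcd2 (1.39) and Oxct1 (1.00) are the farthest points above 0.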

How the data were processed

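Liver RNA of 12 mice was hybridised to 1 Affymetrix-protocol array each, after column extraction and biotin labelling, per the labels' protocols. The authors deposited log2 signals per probe set, for which the submitters' processing notes name RMA and Transcriptome Analysis Console; versions and a genome build are not given in the sources used here. Of 28846 rows, 6640 control rows were left out, which leaves 22206 probe sets; 19572 have 1 gene symbol in the platform annotation and 2634 are unnamed. Where a symbol had several probe sets, the one of highest mean was to be used; no member had more than 1. The groups were compared with limma 3.58.1 (R 4.3.3; lmFit and eBayes, all 12 arrays, no covariate), adjusted by Benjamini-Hochberg over all probe sets, and the fit was tested on simulated data. Correlations used 100000 permutations (scipy 1.17.1), and the negative control median an exact permutation test over 924 labellings, whose smallest p is 0.00216. The members and lists were chosen with earlier results of these data known.

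Genes given in full were a fixed set of 9 (Ppara, Cpt1a, Acadm, Ehhadh, Cyp4a10, Cyp4a14, Pdk4, Vnn1 and Fabp1), the 4 of smallest p per compartment and the 3 of greatest SD; Hadha was added as the partner of Hadhb after its values were seen. Of each further list, up to 3 of smallest p. Compartments were assigned from general knowledge of each protein's main site. Alternatives were quantile normalization, median centring, keeping the 11103 brightest probe sets, a variance trend with robust estimation, a negative control covariate, averaged probe sets, and leaving out arrays singly, arrays 3 to 6, or arrays 8, 10 and 11, the last chosen after seeing the data.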

Additional observations from a re-analysis of the deposited data

Results flagged for a closer look

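Within each group of 6 arrays, the highest and lowest value of each of the 34 members was set against Dixon's criterion for a sample far from the others (gap over range above 0.625). Of 68 groups tested, 6 met it, and chance gives about 1 in 20 for normally distributed, independent values. Members can move together on an array, and the share of all probe sets meeting the criterion is not given here. Whether the count is particular to the members was therefore not tested. In offspring of UCP1-KO dams these were Ppara on array 9 (13.90, next 13.06), Acot3 on array 9 (10.54, next 7.90) and Ehhadh on array 11 (15.41, next 14.77). In offspring of WT dams they were Acaa2 on array 3 (low at 16.52, next 16.84), Decr2 on array 1 (14.18, next 13.90) and Cyp4a32 on array 2 (14.82, next 14.05). The receptor and 1 of its targets thus stood apart on the same array, and the cause was not tested.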

How the results depend on the processing

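Across 20 alternatives, none of the 34 members reached an adjusted p under 0.05 (lowest 0.0745), 16 members kept their direction throughout, and 18 turned in at least 1 alternative; of 680 member values, 66 had the opposite sign, and the cause was not tested. The count of probe sets called, 8 as reported, was 32 among the 11103 brightest probe sets (fewer tested), 22 with a variance trend and robust estimation, 2 with the covariate, 0 without arrays 3 to 6, 0 without arrays 8, 10 and 11, and 1 to 112 when 1 array was left out. It was 112 without array 2, 54 without array 7, and 1 to 5 without array 3, 6, 8, 9 or 11. Members at an unadjusted p under 0.05 numbered 4 without arrays 3 to 6, a fit with only arrays 1 and 2 for WT dams (Cyp4a10, Cyp4a31, Cyp4a32 and Acot1). Their identity also moved: Cyp4a10 and Cyp4a32 were not among them without array 2, without array 10, or without arrays 8, 10 and 11. Ppara, Eci2, Acot3 and Vnn1 were among them without arrays 8, 10 and 11, and Eci1 and Cyp4a31 with the covariate. Cyp4a14 joined them without array 2, Cyp4a31 without array 5 or array 8, and Acadm with quantile normalization or without array 10. Hadha was not among them with median centring, or without array 3, 4, 5, 7, 8, 9 or 12. Members without overlap numbered 1 without arrays 3 to 6 (Cyp4a10), 3 without arrays 8, 10 and 11 (Acadm, Hadha and Hadhb), and 0 to 3 with 1 array left out: 3 without array 2 (Acadl, Hadhb and Etfa) and 1 without array 10 (Acadm). Smaller groups separate more easily. The shares of all probe sets in these smaller fits, for non-overlap or unadjusted p, are not given here. Whether these counts are particular to the members was therefore not tested. The members' median difference was 0.26 without arrays 8, 10 and 11. Quantile normalization turned Bdh1 to 0.0050. Median centring turned Etfdh to -0.027, Eci2 to -0.025 and Acot1 to -0.016. The covariate turned Cpt2 (-0.12), Acadvl (-0.031), Acaa2 (-0.053), Etfdh (-0.043), Ehhadh (-0.027), Eci2 (-0.15) and Acot1 (-0.32). Leaving out arrays 3 to 6 turned Cpt2 (-0.17), Acadvl (-0.042), Acaa2 (-0.055), Etfdh (-0.068), Ehhadh (-0.050), Eci2 (-0.18), Fabp1 (0.029) and Acot1 (-0.64). Leaving out arrays 8, 10 and 11 turned Acads (0.26), Decr1 (0.26), Eci1 (0.15), Bdh1 (0.17), Acaa1a (0.034), Acaa1b (0.41), Decr2 (0.15), Fabp1 (0.13), Acot12 (0.18) and Vnn1 (0.72). With 1 array left out, Acads ran from -0.12 to 0.11, Decr1 from -0.14 to 0.035, Bdh1 from -0.11 to 0.043, Pdk4 from -0.29 to 0.020, Eci2 from -0.12 to 0.18, Cpt2 from -0.015 to 0.15, Acaa2 from -0.029 to 0.069, Etfdh from -0.036 to 0.029, Ehhadh from -0.0028 to 0.20, Acaa1b from -0.25 to 0.076, Fabp1 from -0.096 to 0.064, Acot1 from -0.17 to 0.16 and Acot12 from -0.14 to 0.037. No paired analysis was possible because the labels name neither litters nor dams and give no pairing.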

Other observations

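Array 9 was also the highest of the 12 for 24 of the 115 further pathway genes (20.9%, against 10.5% of all probe sets). Among them were Plin2, which coats lipid droplets, Crat, carnitine acetyltransferase, Pex11a, which acts in peroxisome division, Creb3l3, a liver transcription factor that works with PPAR-alpha, and Cat, catalase of the peroxisome. These were singled out after their values were seen.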
